A study of Mus musculus with 6 samples.

Results

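Complement and coagulation genes were examined in the lateral septum (LS) of mice fed olanzapine, as a set of 50 genes of the 35415 in the deposited tables. The genes were chosen by symbol with earlier results of these data known, and were then split by a measured value, the mean FPKM (fragments per kilobase of gene, scaled to sequencing depth) of the control pools. With a limit of 1 FPKM, 14 genes stood at or above it in control LS and 36 stood below it. The set holds complement components, regulators and receptors, coagulation factors and fibrinogen, without the serpin inhibitors. The question put to the data was which of these genes the LS expressed in control mice, and which differed between the diets.

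RNA sequencing covered 6 libraries of LS, 3 from the olanzapine group and 3 from controls. Each library was a pool of tissue micro-dissected from 3 wild-type (WT) female C57BL/6 mice, obtained at about 8 weeks of age. Olanzapine, an antipsychotic drug that promotes weight gain, was mixed into maintenance feed at 50 mg/kg, control mice received the same type of feed without it, and both diets were given for 12 weeks. The total count lay between 38208153 and 39868872 per pool. Pooling averages the mice of a library, so the error below is the spread between 3 pools per group, and no source used here says how the pools were spread over cages or extraction days.

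Complement is a cascade of plasma proteins that tags and lyses targets. C1q, the mannose-binding lectins or the alternative pathway set it off, C3 is cleaved at its centre, and C5 to C9 form the membrane attack complex. Coagulation is a second cascade of zymogens that ends with thrombin cutting fibrinogen into fibrin, which plasmin dissolves. The liver secretes most of these plasma proteins, whereas brain microglia make C1q and astrocytes make tissue factor.

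Promoter stretches of fibrinogen genes are shown first, since these genes had the largest log2 fold changes of the called genes apart from C4bp, with that of C1qb, the gene with the highest level in control LS. They are RefSeq sequences of GRCm38.p6, written 5′ to 3′ on the strand of the gene. Capitals in the fibrinogen stretches mark matches to GTTAAT, a core of sites of the hepatocyte factor HNF1, or to TTGCNNAA, a C/EBP motif. Capitals in C1qb mark GGAA, the core of sites for ETS factors such as PU.1, in either orientation. The Fga stretch, chr3:83025993-83026072 (+), ends 81 bases before the RefSeq start. The others end at the last base before the start and lie at chr3:83049864-83049983 (−) for Fgb, chr3:83007604-83007723 (+) for Fgg and chr4:136886201-136886320 (−) for C1qb.
Fga: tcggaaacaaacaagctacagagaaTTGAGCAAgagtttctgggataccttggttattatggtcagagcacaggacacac
Fgb: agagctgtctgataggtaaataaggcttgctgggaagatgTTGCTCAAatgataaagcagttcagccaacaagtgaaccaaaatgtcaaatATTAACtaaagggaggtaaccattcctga
Fgg: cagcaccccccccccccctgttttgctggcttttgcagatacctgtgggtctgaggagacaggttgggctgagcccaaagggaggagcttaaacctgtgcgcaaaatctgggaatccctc
C1qb: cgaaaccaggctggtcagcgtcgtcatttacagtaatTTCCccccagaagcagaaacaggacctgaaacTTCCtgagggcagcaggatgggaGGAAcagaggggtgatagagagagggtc

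A promoter window was available for 39 of the 50 genes, and the 250 bases before the start were searched on both strands. A gene of the set was counted once, if any window of it held a match, while the shares of all genes count windows. The HNF1 core GTTAAT was found for 9 of 30 genes below 1 FPKM in controls (C1ra, C4bp, C7, C8a, C8b, F13b, Fga, Fgb and Hc). It was found for 1 of 9 of the others (Cfp), and in 6.43% of 32851 windows of all genes. TTGCNNAA was found for 7 of 30 genes (C1s1, C9, F11, F9, Fga, Fgb and Klkb1) and for 1 of 9 (C3), and in 9.56% of all windows. Fga and Fgb held both motifs, the GTTAAT match of Fga lying nearer to the start than the printed stretch, and neither motif was found in the window of Fgg. GGAA was found for 38 of the 39 genes and in 93.4% of all windows, and TATAAA for 4 of the 39 genes and in 12.4% of all windows. A match is only a match of letters.

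In control LS the highest levels belonged to the chains of C1q, the recognition molecule of the classical pathway, and to F3, which encodes tissue factor, the initiator of coagulation. C1qb had 44.2 ± 3.53 FPKM (SD, n = 3), C1qa 41.0 ± 1.61 and C1qc 40.9 ± 3.18, and these neighbours overlapped between pools. F3 came next at 35.1 ± 2.41 FPKM, with every control pool below those of C1qc. C4b, which encodes the C4 part of the classical C3 convertase, followed at 9.96 ± 1.36 FPKM, and no other gene of the set overlapped it from below except F5, whose control pools ran from 0.213 to 11.4 FPKM. These levels are per kilobase and are a description, since the split used them. The members nearest to the limit were Cd55 (0.847 FPKM) and C8g (0.690 FPKM) below it, and Thbd (1.21 FPKM) and Masp1 (1.24 FPKM) above it.

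**Figure D1:**
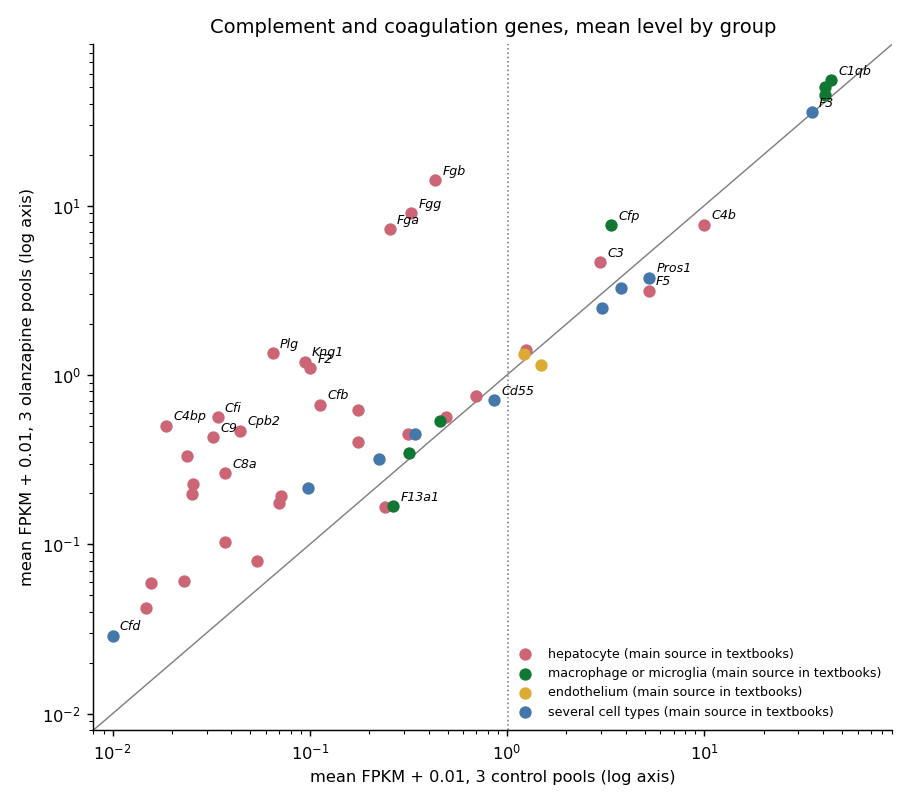
Mean FPKM plus 0.01 of each of the 50 genes in the 3 control pools (x, log axis) and the 3 olanzapine pools (y, log axis), coloured by the main source of the protein in textbooks, with equality as the solid line and the 1 FPKM limit as the dotted line. Genes such as C1qb and F3 lie by the solid line, and Fga, Fgb and Fgg move from below 1 FPKM to between 7.27 and 14.1 FPKM.

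Of the 50 genes, 43 had enough counts for the edgeR quasi-likelihood test. A gene was called when its adjusted p was below 0.05 and its log2 fold change passed 1 in size. In the olanzapine group 13 were called higher, where 0.950% of all 17255 genes tested were, and 0 were called lower, where 0.0580% were. At an unadjusted p below 0.05, 22 were higher and 2 were lower, where 9.19% and 8.40% of all genes tested were. DESeq2, which gave an adjusted p for 47 of the 50 genes, called 17 of them higher (Mbl2, F10, F12 and Proc beside the 13) and 0 lower, where it called 1.41% and 0.194% of all 19070 genes. The olanzapine pools lay above every control pool in 22 of the 43, as in 13.3% of all genes tested, and below them in 2, as in 1898 of all genes tested (11%). The median log2 fold change was 0.50 over the 43 genes and 0.0039 over all genes tested. Of the 43 genes, 17 passed the count filter only through the olanzapine pools, 10 of the 13 called genes among them, so these counts and this median describe the genes that passed and are no support for a difference of the set from other genes. In bulk tissue, fewer cells of a type and less RNA per cell cannot be told apart.

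On the lower side of the split, 12 of 29 tested genes were called and 18 lay above the controls without overlap, with a median log2 fold change of 1.85. The 17 genes that passed the filter only through the olanzapine pools were all among these 29, so the same limit holds for this count and median. The other 7 genes on this side had too few counts for the test. On the higher side, 1 of 14 tested genes (Cfp) was called, 4 lay above the controls and 2 below them, and the median log2 fold change was 0.05. Of all genes tested, 0.950% were called higher, 13.3% lay above the controls and 11% below them. The difference between the sides was not tested, since the split used control pools of the same contrast.

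**Figure D2:**
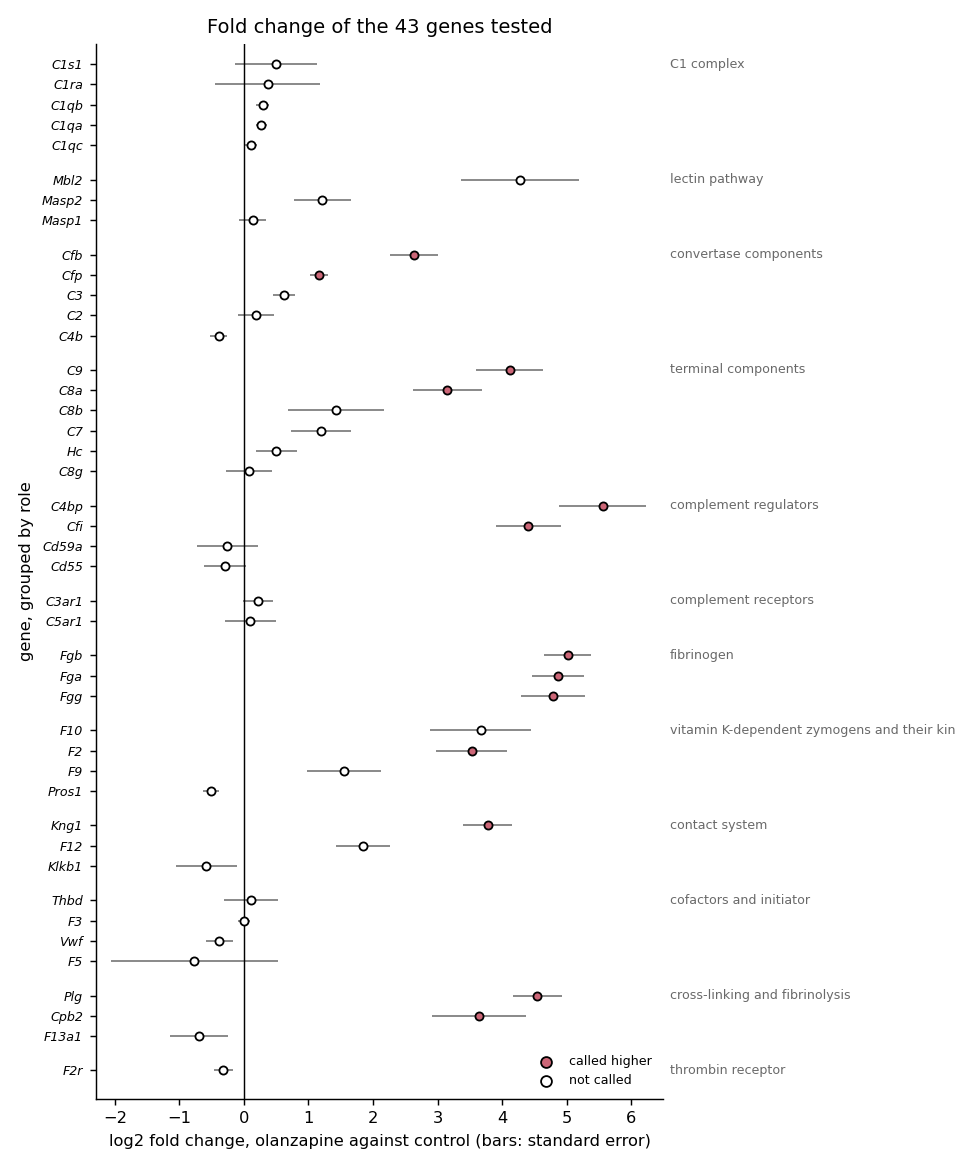
Log2 fold change (olanzapine against control) of the 43 tested genes with its standard error, ordered by role, and filled where the gene was called. The called genes lie at 1.16 (Cfp) and above. F3 lies near 0, the C1q chains between 0.11 and 0.29, C3ar1 and C5ar1 at 0.22 and 0.10, and F2r at -0.32.

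Of the genes at or above 1 FPKM in control LS, the one that was called was Cfp. Cfp encodes properdin, which stabilizes the alternative C3 convertase and is made by myeloid cells, and it lies at chrX:20925454-20931555 (−) of mm10, the build of all gene positions given here. It had 3.02, 3.55 and 3.54 FPKM in controls and 8.13, 7.22 and 7.65 FPKM in the pools given olanzapine. The lowest olanzapine pool was thus above the highest control pool. The log2 fold change was 1.16 ± 0.13 (standard error, edgeR, adjusted p = 0.00548), and the call held when any single pool was left out. Its neighbour on the same strand, Elk1, had a log2 fold change of -0.07 (edgeR, adjusted p = 0.765). Cfp was 8.22 ± 0.507% of C1qa by FPKM in controls and 15.5 ± 2.75% in the olanzapine group (SD, n = 3).

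The C1q chains did not pass the test. C1qa, at chr4:136895917-136898803 (−), had 39.4, 40.9 and 42.6 FPKM in controls and 43.7, 53.9 and 52.8 FPKM in the olanzapine pools. C1qb, at chr4:136880129-136886187 (−), had 43.2, 41.2 and 48.1 FPKM against 47.5, 58.7 and 58.3 FPKM, and C1qc had 37.8, 44.2 and 40.6 FPKM against 39.9, 44.9 and 49.8 FPKM. For C1qa every olanzapine pool was above every control pool, for C1qb this held by TMM-normalized counts but not by FPKM, and for C1qc the groups overlapped. Their log2 fold changes were 0.27, 0.29 and 0.11 (edgeR, adjusted p = 0.161, 0.173 and 0.596). The ratio of C1qa to C1qb was 93.0 ± 5.61% in controls and 91.4 ± 0.815% in the olanzapine group.

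C1ra and C1s1, which encode the proteases of the C1 complex, stood far below the C1q chains in control LS, at 0.332 ± 0.171 and 0.214 ± 0.132 FPKM. The log2 fold changes were 0.37 and 0.50 with standard errors of 0.81 and 0.64 (edgeR, adjusted p = 0.858 and 0.741). Both genes have near copies in the mouse genome, C1rb and C1s2, among which reads could be split. C1rb had 0, 0 and 1 counts in controls and 0 in each olanzapine pool. C1s2 had 4, 9 and 5 counts against 12, 7 and 14 counts.

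C3, the component on which all activation routes converge, had 2.45, 2.90 and 3.51 FPKM in controls and 3.68, 5.60 and 4.57 FPKM in the olanzapine pools. The groups did not overlap, but the log2 fold change of 0.62 ± 0.17 did not pass (standard error, edgeR, adjusted p = 0.116). C4b had 10.04, 11.3 and 8.55 FPKM against 7.12, 7.18 and 8.83 FPKM, with 1 olanzapine pool above the lowest control pool. Its log2 fold change was -0.39 ± 0.13 (standard error, edgeR, adjusted p = 0.16997), and reads of C4a, a near-identical copy not analysed here, could be among its counts. C2, the protease of the same convertase, had 0.480 ± 0.1003 FPKM in controls and 0.554 ± 0.0110 FPKM in the olanzapine group.

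Cfb encodes factor B, the protease of the alternative C3 convertase. It had 0.0906, 0.145 and 0.0733 FPKM in controls and 0.620, 0.766 and 0.587 FPKM in the olanzapine pools, without overlap. It rose by a log2 fold change of 2.63 ± 0.37 (standard error, edgeR, adjusted p = 0.0130). The call was lost without control pool 1, without control pool 3, without olanzapine pool 2 and without olanzapine pool 3, and over the 6 fits that left out 1 pool the adjusted p ran from 0.0197 to 0.0633 (edgeR). Cfd, which encodes factor D and is made by fat cells, had 0 counts in every control pool and 2, 0 and 0 counts in the olanzapine pools, and no fold is given.

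Among lectin pathway genes, Masp1, which encodes a protease bound to mannose-binding lectin, had 1.52, 1.03 and 1.18 FPKM in controls and 1.73, 1.16 and 1.27 FPKM in the olanzapine pools. The groups overlapped, with a log2 fold change of 0.13 and a standard error of 0.21 (edgeR, adjusted p = 0.797). Its relative Masp2 had 0.165 ± 0.0845 FPKM against 0.391 ± 0.1001 FPKM, a log2 fold change of 1.22 that did not pass (edgeR, adjusted p = 0.208). Masp2 overlaps Tardbp, which had a mean of 6565 counts per pool, and the part of Tardbp reads in its counts was not tested. The lectins themselves were near the limit of counting. Mbl2 had 2, 0 and 0 counts in controls and 13, 14 and 18 counts in the olanzapine pools, which missed the threshold (edgeR, adjusted p = 0.0583), and Mbl1, with 1, 3 and 0 counts against 22, 7 and 5, did not enter the main edgeR test. The ratio of depth-scaled counts was 22.8 for Mbl2, with a 95% interval from 5.97 to 194, and 8.63 for Mbl1, with an interval from 3.08 to 33.5. Such intervals cover counting error only, as reads copied by PCR are not independent molecules.

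Of the terminal components, which assemble into the membrane pore, C9 and C8a were called. C9, the subunit that polymerizes, had 1, 2 and 3 counts in controls and 31, 41 and 37 counts in the olanzapine pools, a ratio of 18.4 with a 95% interval from 8.20 to 51.4 (edgeR, adjusted p = 0.00824). C8a, a chain of C8, had 6, 4 and 2 counts against 40, 44 and 24 counts, and its log2 fold change was 3.15 ± 0.54 (standard error, edgeR, adjusted p = 0.0263). Neither gene overlapped between the groups. Leaving out 1 pool ended the call of C9 only for control pool 2, with an adjusted p of 0.0598, whereas that of C8a held only without olanzapine pool 1, with adjusted p from 0.0490 to 0.125 over the 6 fits (edgeR).

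The other terminal genes were not called. C8b, which neighbours C8a on chromosome 4, had 12, 2 and 2 counts in controls and 11, 15 and 17 counts in the olanzapine pools, so that control pool 1 lay within the olanzapine range (log2 fold change 1.42, standard error 0.74, edgeR, adjusted p = 0.367). C8g, the third chain of C8, stood at 0.690 ± 0.186 and 0.743 ± 0.231 FPKM, with a log2 fold change of 0.08 (edgeR, adjusted p = 0.936). C8g overlaps Fbxw5, which had a mean of 3163 counts per pool and a log2 fold change of 0.08. Whether reads of Fbxw5 are among the counts of C8g was not tested. Hc, which encodes C5, had a log2 fold change of 0.50 and C7 one of 1.19 (edgeR, adjusted p = 0.465 and 0.241). C6 did not enter that test and had 1, 0 and 1 counts against 5, 6 and 2 counts.

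Among soluble regulators, Cfi and C4bp were called. Cfi encodes factor I, the protease that cuts C3b and C4b, and had 2, 3 and 1 counts in controls and 46, 50 and 37 counts in the olanzapine pools, a ratio of 22.5 with a 95% interval from 10.1 to 62.4 (edgeR, adjusted p = 0.00540). C4bp encodes its cofactor, C4-binding protein, and had 1, 0 and 1 counts against 42, 39 and 29 counts, a ratio of 55.8 with an interval from 15.1 to 467 (edgeR, adjusted p = 0.00662). Both calls held in each of the 6 fits that left out 1 pool.

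Cd55 and Cd59a, which encode membrane-bound inhibitors of the convertase and of the pore, were not called. Cd59a had 1.79, 3.50 and 6.07 FPKM in controls and 2.55, 5.29 and 1.85 FPKM in the olanzapine pools, and the group ranges nearly coincided (log2 fold change -0.26, standard error 0.47, edgeR, adjusted p = 0.828). Cd55 had 0.847 ± 0.362 against 0.701 ± 0.235 FPKM. The receptors C3ar1 and C5ar1, which bind the C3a and C5a peptides on myeloid cells, had log2 fold changes of 0.22 and 0.10 (edgeR, adjusted p = 0.687 and 0.923).

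The 3 fibrinogen genes, Fgg (chr3:83007724-83015049, +), Fga (chr3:83026076-83033627, +) and Fgb (chr3:83040141-83049863, −), lie side by side on chromosome 3 and encode the chains of the clot protein. Fgb had 0.515, 0.590 and 0.164 FPKM in controls and 12.5, 16.5 and 13.2 FPKM in the pools given olanzapine. Fga had 0.238, 0.403 and 0.0904 FPKM against 6.99, 8.50 and 6.31 FPKM. Fgg had 0.451, 0.440 and 0.0601 FPKM against 8.28, 9.91 and 8.90 FPKM. In each gene control pool 3 was the lowest and olanzapine pool 2 the highest, and the groups stood far apart.

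All 3 genes rose, with log2 fold changes of 5.02 (Fgb, standard error 0.36), 4.86 (Fga, 0.41) and 4.80 (Fgg, 0.50), and adjusted p-values of 0.000922, 0.00160 and 0.00363 (edgeR). Their calls held without any single pool. By mean FPKM Fgb moved from rank 19 of the 50 genes in controls to rank 5 in the olanzapine group, just behind the C1q chains and F3. The ratios between the chains overlapped between the groups. Fga was 56.6 ± 11.1% of Fgb in controls and 51.7 ± 3.95% in the olanzapine group, and Fgg was 66.3 ± 26.5% and 64.6 ± 3.80%. The spread of these ratios in controls rests on 5 to 54 counts per gene and pool.

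**Figure D3:**
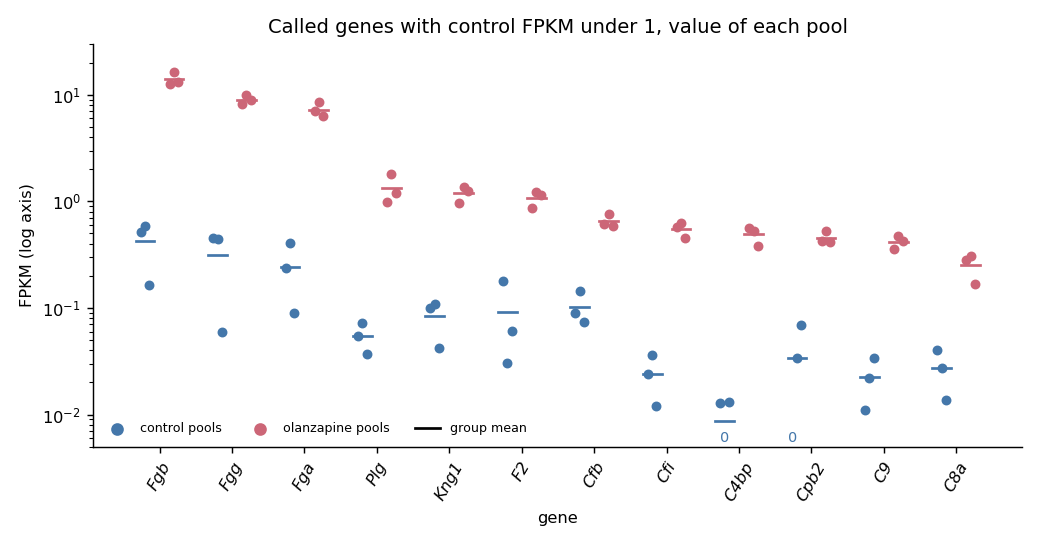
FPKM of each pool (log axis, values of 0 drawn at the foot of the axis) for the 12 genes below 1 FPKM in controls that were called higher. In each of the 12 the olanzapine pools lie above the control pools, with the fibrinogen genes at 6.31 FPKM and more.

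Plg, which encodes plasminogen, the precursor of the enzyme that dissolves fibrin, had 0.0546, 0.0730 and 0.0368 FPKM in controls and 0.992, 1.80 and 1.21 FPKM in the olanzapine pools. It rose by a log2 fold change of 4.55 ± 0.38 (standard error, edgeR, adjusted p = 0.00160), a call that held without any single pool. Cpb2, whose product slows this step by trimming fibrin, had 0, 2 and 4 counts against 24, 30 and 24 counts. Its ratio was 13.2 with a 95% interval from 5.80 to 37.1 (edgeR, adjusted p = 0.0487), and leaving out any of the 6 pools ended its call, with adjusted p from 0.0641 to 0.189 (edgeR). The cross-linking factor was not called. F13a1, its catalytic chain, which macrophages and platelets make, had 0.255 ± 0.0309 FPKM in controls and 0.158 ± 0.0898 FPKM in the olanzapine group (log2 fold change -0.70, edgeR, adjusted p = 0.462), and F13b, the carrier chain, had 1 or 2 counts against 3 to 9 counts and did not enter the main edgeR test.

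F2, which encodes prothrombin, was the vitamin K-dependent zymogen that edgeR called, while DESeq2 also called F10 and Proc. It had 0.181, 0.0302 and 0.0610 FPKM in controls and 0.876, 1.22 and 1.16 FPKM in the olanzapine pools, with a log2 fold change of 3.53 and a standard error of 0.55 (edgeR, adjusted p = 0.0207). The call held without control pool 1 and without olanzapine pool 1 but was lost without each of the other 4 pools in turn, with adjusted p up to 0.0799 (edgeR). F10, whose product activates prothrombin, had 0, 2 and 3 counts against 21, 32 and 14 counts and just missed the threshold (edgeR, adjusted p = 0.0578), with a ratio of 13.6 and a 95% interval from 5.55 to 43.3. F9, the haemophilia B factor, had 8, 10 and 3 counts against 26, 22 and 13 counts, a log2 fold change of 1.55 (edgeR, adjusted p = 0.214).

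F7 and Proc, which encode factor VII and protein C, had too few counts for the main edgeR test. F7 had 0, 5 and 1 counts in controls and 2, 10 and 8 counts in the olanzapine pools, with overlap. Proc had 1, 2 and 1 counts against 9, 21 and 18 counts, without overlap, and was called higher by DESeq2 and by edgeR without olanzapine pool 1. Pros1, which encodes the cofactor of protein C and is made in several cell types, had lower values in the olanzapine group. It had 4.68, 5.55 and 5.48 FPKM in controls and 3.37, 4.36 and 3.49 FPKM in the olanzapine pools, all below the controls, but its log2 fold change of -0.51 ± 0.13 did not pass (standard error, edgeR, adjusted p = 0.0865).

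In the contact system, Kng1, which encodes kininogen, had 0.101, 0.109 and 0.0424 FPKM in controls and 0.958, 1.36 and 1.25 FPKM in the olanzapine pools, and rose by a log2 fold change of 3.77 ± 0.37 (standard error, edgeR, adjusted p = 0.00314). The call held without any single pool. Of the proteases that work with kininogen, edgeR called none, and DESeq2 called F12. F12 had 18, 12 and 9 counts against 33, 50 and 57 counts, without overlap (log2 fold change 1.85, standard error 0.42, edgeR, adjusted p = 0.0691). Klkb1, plasma kallikrein, had 30, 39 and 74 counts against 17, 34 and 43 counts (log2 fold change -0.59, standard error 0.47, edgeR, adjusted p = 0.566). F11, which lies beside Klkb1 on chromosome 8, had 6, 8 and 1 counts against 7, 12 and 4 counts and did not enter the main edgeR test.

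The cofactors and the initiator were not called. F3 had 33.0, 34.5 and 37.8 FPKM in controls and 30.9, 39.5 and 36.7 FPKM in the olanzapine pools, with full overlap, a fold change of 1.00 and a standard error of 0.09 on the log2 scale (edgeR, adjusted p = 0.998). Vwf, the endothelial protein that binds platelets, had 1.43, 1.58 and 1.40 FPKM against 1.53, 0.999 and 0.895 FPKM. Thbd, the endothelial thrombin receptor that activates protein C, had 1.13, 1.60 and 0.894 FPKM against 2.24, 0.866 and 0.839 FPKM. Both genes overlapped between the groups, with log2 fold changes of -0.39 and 0.11 (edgeR, adjusted p = 0.385 and 0.921). In both, olanzapine pool 1 was the highest of its group. Without that pool Vwf had -0.67 (edgeR, adjusted p = 0.0372), within the fold limit, and Thbd had -0.54 (edgeR, adjusted p = 0.323), while over the other single pools Vwf ran from -0.42 to -0.24. The summed level of 9 brain endothelium markers was likewise 60.9, 38.7 and 33.4 FPKM in the olanzapine pools, against 50.8 to 57.9 FPKM in controls, with 0 markers called and none at 0 in all pools, and its part in these values was not tested. F2r, which encodes the thrombin receptor PAR1, had 3.05, 2.92 and 3.12 FPKM in controls and 2.07, 2.53 and 2.81 FPKM in the olanzapine pools, below them without overlap, and did not pass (log2 fold change -0.32, standard error 0.14, edgeR, adjusted p = 0.298).

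**Figure D4:**
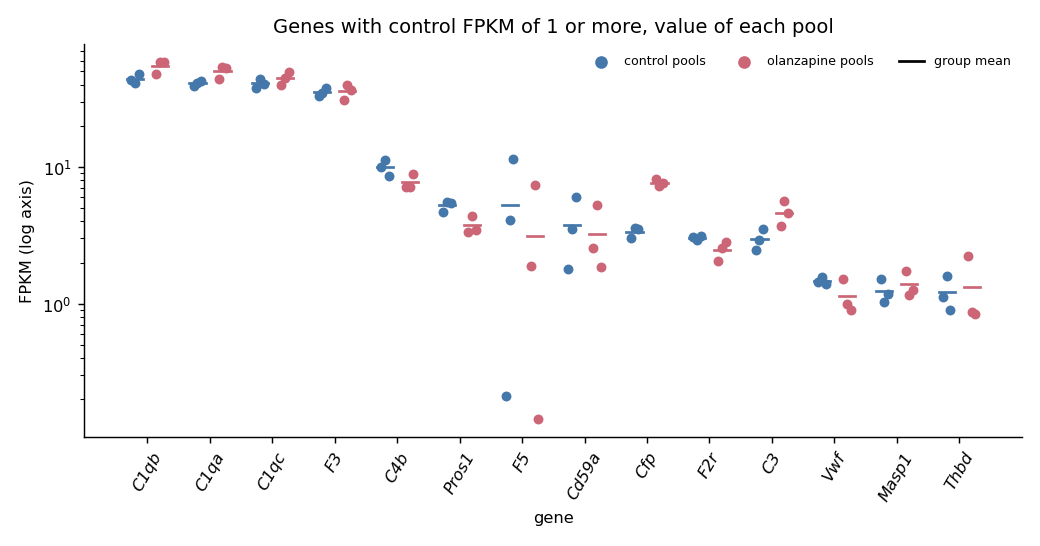
FPKM of each pool (log axis) for the 14 genes at or above 1 FPKM in controls, with group means. Cfp separates the groups most clearly, Pros1 and F2r lie lower in all olanzapine pools, and F5 and Cd59a spread widely within both groups.

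F5, which encodes factor V, the cofactor of the enzyme that makes thrombin, varied more between pools than any other gene of the higher side. It had 0.213, 4.10 and 11.4 FPKM in controls and 1.88, 7.41 and 0.142 FPKM in the pools given olanzapine, so that the diets overlapped over nearly the whole range (log2 fold change -0.77, standard error 1.29, edgeR, adjusted p = 0.808). Ttr, which encodes transthyretin and marks choroid plexus epithelium, had 26.6, 1817 and 5192 FPKM in controls and 766, 3319 and 15.8 FPKM in the olanzapine pools. The summed level of 8 choroid plexus markers ran from 45.3 to 5349 FPKM in controls and from 28.6 to 3440 FPKM in the olanzapine group, and none of these markers was at 0 in all pools. F5 and Cd55 had the same order as this sum over all 6 pools.

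Within each group, 7 of the 43 tested genes had the order of the choroid plexus sum, namely C1ra, C1s1, Cd55, Cd59a, F10, F5 and Cpb2, or 16.3%, where 4.97% of all genes tested did. With a choroid plexus score as a covariate, F5 had a log2 fold change of 0.37 and a standard error of 0.30, and Cd59a one of 0.11 with a standard error of 0.15 (edgeR, adjusted p = 0.563 and 0.770). Under this fit 13 genes were called, with F10 in (edgeR, adjusted p = 0.0398) and Cpb2 out (edgeR, adjusted p = 0.0537). Their log2 fold changes were 4.03 (F10) and 3.89 (Cpb2) with the covariate, against 3.67 and 3.64 in the main fit. Without the 2 pools of highest score, control pool 3 and olanzapine pool 2, 5 genes were called (Fga, Fgb, Fgg, Kng1 and Plg), among 43 of 17381 genes. Over all fits but those of limma, the genes that lost this call had log2 fold changes of at least 1.10 (Cfp), 2.34 (Cfb), 2.69 (C8a), 3.82 (C9), 4.03 (Cfi), 5.05 (C4bp), 3.12 (F2) and 3.09 (Cpb2).

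**Figure D5:**
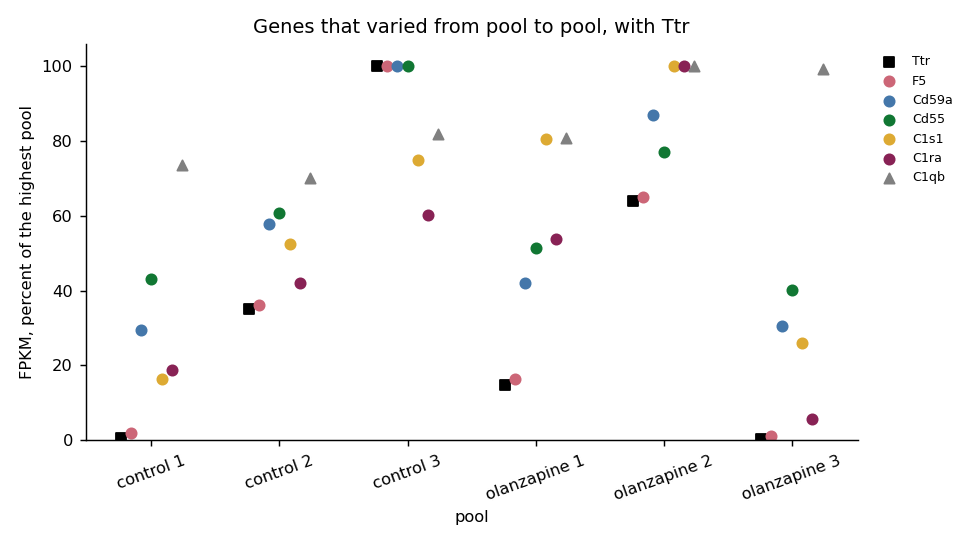
FPKM in each pool as percent of the highest pool of that gene, for Ttr, F5, Cd59a, Cd55, C1s1, C1ra and, for contrast, C1qb. F5 follows Ttr from pool to pool in both groups, whereas C1qb varies little.

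Grouped by the main source of the protein in textbooks, 12 of 26 tested hepatocyte genes were called, with a median log2 fold change of 2.89, or 2.49 with genes at the floor of 3 counts per control pool set to their bound. Of these 26, 15 passed the count filter only through the olanzapine pools, so that their count and median are no measure of the hepatocyte genes as a whole and were not set against the 0.950% of all genes or against the groups that follow. Of the 4 hepatocyte genes at or above 1 FPKM in controls (Masp1, C3, C4b and F5), all of which passed the filter in both groups, 0 were called, and C3 (higher) and C4b (lower) had an unadjusted p below 0.05, as 9.19% and 8.40% of all genes tested had in these directions. Among 7 macrophage or microglia genes 1 was called (Cfp), with a median of 0.22. Neither of the 2 endothelial genes was called, nor were any of the 8 tested genes made by several cell types, whose median was -0.13.

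Markers of hepatocytes were higher in the same pools. Of 16 such markers, 15 were called higher and the 16 lay above the controls without overlap, but 9 of them passed the count filter only through the olanzapine pools. Their sum ran from 10.1 to 14.9 FPKM in controls and from 140 to 183 FPKM in the olanzapine pools, and no marker was at 0 in all pools. Alb, which encodes albumin, had 5.60, 6.18 and 3.30 FPKM in controls and 63.7, 84.2 and 66.9 FPKM in the olanzapine pools, and its control pool 3 and olanzapine pool 2 were the extremes, as for fibrinogen. Hnf4a, the nuclear receptor that drives hepatocyte genes, had 1 count in every control pool against 32, 34 and 35 counts. The part of these markers in the result was not tested.

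Ratios to Alb by FPKM were computed for 6 called genes, as values without a test. Fgb was 9.20, 9.54 and 4.96% of Alb by FPKM in controls and 19.7, 19.5 and 19.7% in the pools given olanzapine, without overlap. Fga was 4.502 ± 1.90% of Alb in controls and 10.2 ± 0.764% in the olanzapine group, and Fgg 5.67 ± 3.36% and 12.7 ± 0.811%, also without overlap. Plg was 1.09 ± 0.105% of Alb in controls and 1.84 ± 0.295% in the olanzapine group, without overlap. Kng1 was 1.62 ± 0.287% and 1.66 ± 0.189%, and F2 1.86 ± 1.37% and 1.52 ± 0.189%, with overlapping pools for both.

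Of the other marker lists, most held no called gene. Microglial markers summed to between 134 and 139 FPKM in controls and between 128 and 150 FPKM in the olanzapine pools, with 0 of 10 called. Markers of septal and GABA neurons were detected in every pool and summed to between 382 and 486 FPKM and between 309 and 428 FPKM. Of these, 0 of 9 were called, and their median log2 fold change was -0.34. Sums of erythroid markers, from red blood cells, ran from 88.0 to 118 FPKM and from 92.1 to 115 FPKM. Nuclear long noncoding RNAs differed, with 4 of 5 called higher, where 0.950% of all genes tested were. Their sums ran from 184 to 231 FPKM and from 488 to 572 FPKM, and their part in the values above was not tested.

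The pathways hold further genes outside the set. Of 17 further complement genes tested, 1 was called, Cfhr2, a factor H-related gene made in liver, with 0.0210 ± 0.0240 FPKM in controls and 0.509 ± 0.0926 FPKM in the olanzapine group (edgeR, adjusted p = 0.0233). Of 20 further genes of coagulation and fibrinolysis tested, 1 was called, Hrg, which encodes the plasma protein histidine-rich glycoprotein, with 0.0679 ± 0.0469 and 1.22 ± 0.145 FPKM (edgeR, adjusted p = 0.00824). The median log2 fold changes of these lists were -0.18 and -0.03. Of all genes tested, 0.950% were called higher. Of the 17 and the 20 genes, 3 and 5 passed the count filter only through the olanzapine pools, Cfhr2 and Hrg among them. The counts and medians of these lists thus only describe the genes that passed.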

How the data were processed

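LS libraries were prepared by the authors with the VAHTS Universal V6 kit. Per the methods and the submitters' processing notes, reads were trimmed with fastp, aligned to mm10 with HISAT2 and counted per gene with HTSeq-count. The deposited counts are raw, and the deposited FPKM values were computed by the authors. Tool versions, the strand setting and the handling of multiply mapped reads are not given in the sources used here, so overlapping genes and near copies are uncertain. Groups and replicate numbers came from the titles.

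Counts were normalized with TMM, filtered with filterByExpr (minimum count 10, minimum total 15) and fitted with group as the only term in edgeR 4.0.16 (R 4.3.3). P-values of the quasi-likelihood F test were adjusted by the Benjamini-Hochberg method over all 17255 genes tested. The standard error was the log2 fold change divided by the square root of F. The script was tested on simulated data. DESeq2 1.42.0, limma 3.58.1 on log2 FPKM with pseudocounts of 1 and 0.1, other normalizations and filters, a replicate block, single pools left out and other limits of the split were alternatives, and the choroid plexus score and the removal of its 2 highest pools were added after seeing the data. Count ratios carry exact 95% intervals.

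The members and lists were chosen with earlier results of these data known. Full values were given for genes at or above 1 FPKM in controls and for called genes, and others where a result turned on them. The 6 genes set against Alb were taken from the called genes after their values were seen. Gene positions came from GENCODE M21 and promoters from RefSeq (GRCm38.p6).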

Additional observations from a re-analysis of the deposited data

How the results depend on the processing

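The count of 13 members called higher stayed within 1.5 times in edgeR with RLE or upper-quartile factors, without a count filter, with limma on log2(FPKM + 0.1), with DESeq2 (17) and with the choroid plexus covariate. It was 7 (6 of them below 1 FPKM in controls) among genes with a mean of at least 50 counts, where fewer members were tested. That mean was taken over all 6 pools, so genes low in controls could pass it through their olanzapine pools. The count, and the lower-side median given below for that filter, thus only describe the genes that passed. The number called was 5 (5 and 0 on the lower and higher side of the split) with limma and a pseudocount of 1, filtered or not, and without control pool 3 and olanzapine pool 2. Leaving out single pools gave 9 to 13 calls, 8 to 12 on the lower side. No setting called a member lower. The median log2 fold change of the lower side, 1.85, was 2.18 without a filter, 3.66 at a mean of 50 counts, 0.26 with limma on log2(FPKM + 1), 0.15 with that fit unfiltered, 1.35 with a pseudocount of 0.1, 1.61 without the 2 pools, and 1.78 to 2.67 without single pools, while that of the higher side ran from -0.10 to 0.10 without single pools. The replicate block gave 10 calls (9 on the lower side), ending those of F2, C8a and Cpb2. Same-numbered pools had correlations of -0.00262, 0.0616 and -0.255 in their deviations from the group mean. With 3 pools per group these values do not settle whether the numbers pair the pools. Fold changes under each setting were compared for 26 members, the 14 at or above 1 FPKM in controls and the 12 called below it, and directions turned for 5 of these, none of them called. The other tested members were not compared in this way. F3 was -0.0052 with DESeq2, -0.0038 with RLE, -0.0049 without a filter, -0.0028 with the block, -0.0079 without the 2 pools and -0.059 to 0.079 without single pools. F5 was 0.37 and Cd59a 0.11 with the covariate, and without single pools they ran from -2.36 to 0.52 and from -0.78 to 0.26. Thbd was -0.014 with the block and -0.54 to 0.37 without single pools, and Masp1 ran from -0.076 to 0.31. Without olanzapine pool 1 the adjusted p passed 0.05, within the fold limit, for C3 (0.0436), C1qa (0.0441) and Vwf (0.0372), and with DESeq2 for C3 (0.0164) and Pros1 (0.0131). The causes were not tested. The number of members below the split was 34 at 0.5 FPKM, 39 at 2 FPKM and 33 by the mean of all 6 pools, which moved Fga, Fgb and Fgg. Members with a few counts per control pool are limited by counting error.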
